A study of Mus musculus with 6 samples.

Results

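The genes described here are the 10 replication origin licensing factors Mcm2, Mcm3, Mcm4, Mcm5, Mcm6, Mcm7, Mcm10, Cdc6, Cdt1 and Gmnn. They were found by symbol, with 1 row each, among 40303 gene models measured by RNA sequencing of CT26 tumours. CT26 is a mouse colon carcinoma line, here grown under the skin of wild-type BALB/c mice, the strain it came from. Of 6 tumours from 6 mice, 3 were from mice given PEGylated glutaminase, an enzyme that breaks down glutamine, at 50 IU per kg into the peritoneum, and 3 carried vehicle alone (PBS containing 10% glycerol). Both groups were dosed 2 times, 3 days apart, once tumours could be felt, and polyadenylated RNA of each tumour made up 1 library. The labels give no age. All mice carried the same line, so any difference concerns this line and its host tissue only.

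Before a cell copies its DNA, each origin must be licensed. The origin recognition complex, with Cdc6 and Cdt1, loads the ring of the 6 MCM subunits onto DNA in an inactive form, and geminin (the product of Gmnn) binds Cdt1 and blocks further loading once S phase has begun. Later factors, Mcm10 among them, turn the loaded ring into a working helicase. Transcription of most of these genes is known to depend on the E2F family, which is released when cells commit to divide, and proliferating tumours express them strongly.

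Libraries held 16455052 to 16791267 reads for PEG-glutaminase tumours and 17380129 to 18051480 reads for vehicle tumours, and the lowest member in any tumour was Cdc6 in vehicle 2, at 442 normalized counts. Such values are normalized counts, that is reads divided by a size factor of the library. Markers of colon epithelium were low. Epcam stood at 2.07 to 7.92 normalized counts in the PEG-glutaminase tumours and 6.87 to 58.0 in the vehicle tumours, and Vil1 lay between 0 and 4.12 in all 6, while the keratin Krt18 stood at 140 to 201 and 131 to 263. Some libraries carried other tissue. The 5 keratinocyte markers summed to 6577 normalized counts in vehicle 1. The other vehicle tumours had 67.7 and 184, and the PEG-glutaminase tumours 61.4 to 65.3. Skeletal muscle markers summed to 1312 in PEG-glutaminase 2, and to 125 and 40.1 in PEG-glutaminase 1 and 3. In vehicle 1, 2 and 3 they summed to 422, 172 and 892. In bulk tumour RNA, fewer cells of a type and less RNA per cell cannot be told apart.

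The promoters of the genes are shown first because E2F-type motifs in them are what most members share beyond their function. RefSeq promoters, which run from 250 bases before to 50 after the start of transcription (build GRCm38.p6), were at hand for 8 members; Mcm4 and Gmnn were not among them. The words TTTCCCGC, TTTCGCGC, TTTGCCGC and TTTGGCGC were searched on both strands. At least 1 was found in 6 of the 8 genes, against 704 of 27025 genes with a promoter, or 2.61%. Below, 30 bases around the match nearest to the start are given 5′ to 3′ on the gene's strand, with the matches in capitals.
Cdc6: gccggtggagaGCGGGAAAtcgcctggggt
Cdt1: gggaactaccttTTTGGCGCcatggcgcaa
Mcm3: gtgGCGGGAAAacttgggaagtTTTGGCGC
Mcm5: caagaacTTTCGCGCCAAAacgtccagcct
Mcm6: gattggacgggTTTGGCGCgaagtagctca
Mcm7: gggtgacgacgTTTCGCGCcaatttcggtt
These lie at chr11:98908002-98908031 on the plus strand for Cdc6, chr8:122568035-122568064 on the plus strand for Cdt1, chr1:20820267-20820296 on the minus strand for Mcm3, chr8:75109349-75109378 on the plus strand for Mcm5, chr1:128359734-128359763 on the minus strand for Mcm6 and chr5:138171849-138171878 on the minus strand for Mcm7. In Mcm5 the capitals hold 2 overlapping words, read from opposite strands. Mcm6 holds 3 words in its 300 bases and Mcm7 holds 2, while a further annotated start of Mcm7 holds 0. The Cdc6 bases searched lie inside the annotated gene, which begins at chr11:98907709, so its outermost start was not searched.

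None of the 4 words was whole in the 300 bases of Mcm2 or Mcm10. The Mcm10 stretch ends in all but the last letter of TTTGGCGC, and the next base was not at hand. The 250 bases before the start of Mcm10, at chr2:5012792-5013041 on the minus strand, are given because this gene had the smallest p of the 10 (below). Capitals mark CCAAT, the word bound by NF-Y.
Mcm10: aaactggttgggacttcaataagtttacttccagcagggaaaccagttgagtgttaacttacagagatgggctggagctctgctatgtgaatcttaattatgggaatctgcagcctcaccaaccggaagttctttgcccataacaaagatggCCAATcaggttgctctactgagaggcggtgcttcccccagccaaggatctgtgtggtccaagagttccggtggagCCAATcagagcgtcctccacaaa
CCAAT, on either strand, was in 6 of the 8 promoters, Mcm10 with 3 among them, the last after the start, and in 41.1% of all genes, so it is a common word. In Mcm7 it shares 1 base with an E2F-type word. The cell cycle word TTTGAA was in 1 of the 8, Mcm2, and in 20.2% of all genes. A match describes the letters and is not evidence of binding.

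All 10 licensing factors had a higher mean log2 level in the PEG-glutaminase tumours, 9 of them with no overlap between the groups, and Gmnn by almost nothing. The median log2 difference was 0.29, beside 0.00 over all 13557 genes tested. Over all tested genes, 50.0% had a higher mean log2 level in PEG-glutaminase tumours, and 13.1% were higher with no overlap. Limma's test on log2(value + 1), with Benjamini-Hochberg adjustment over all tested genes and a threshold of 0.05, called 0 of the 10 members and 0.0369% of all genes (5 genes). At an unadjusted p under 0.05, 8 of the 10 were higher by limma, beside 8.92% of all genes. With no filter on low values limma called Cdc6 and Mcm10, where 0.28% of genes were called higher. On the recovered reads edgeR called 0 of the 10 and 0.0369% of all genes, and DESeq2 called 3 higher (Cdc6, Mcm10 and Mcm4). At an unadjusted DESeq2 p under 0.05 there were 8 of the 10, beside 2239 of all 13557 genes in either direction. Of the 12405 genes with a DESeq2 adjusted p, 1.77% were called higher and 3.92% in either direction.

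**Figure D1:**
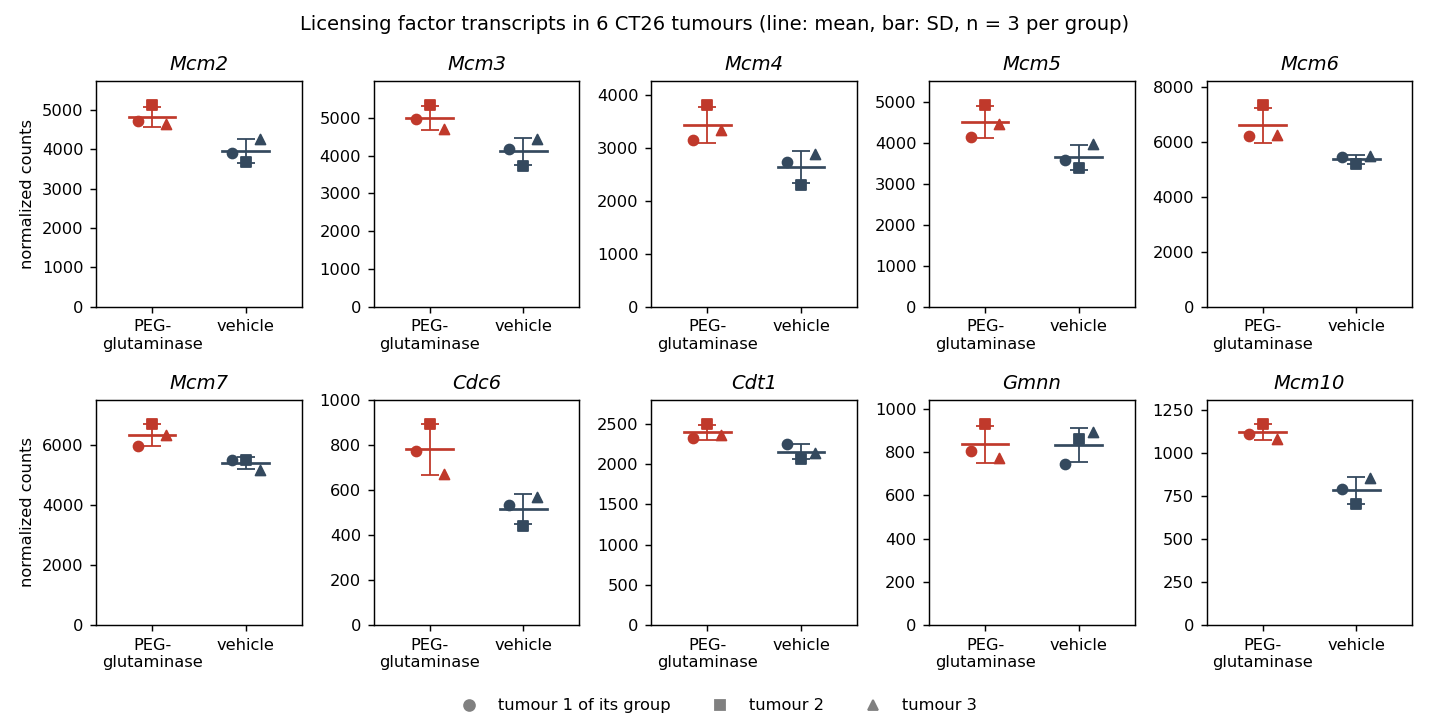
Normalized counts (y axis, from 0) of the 10 licensing factors in the 3 PEG-glutaminase tumours (left of each panel) and the 3 vehicle tumours (right); marker shapes number the tumours within a group, lines are means and bars SD. Only the Gmnn panel shows groups that overlap, and PEG-glutaminase 2 (square) is the highest point in every panel.

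Among the loaders, Cdc6, the ATPase that recruits the helicase to the origin, showed the largest difference of the 10. Cdc6 had 776, 896 and 672 normalized counts in the PEG-glutaminase tumours, against 535, 442 and 570.0 in the vehicle tumours. The lowest PEG-glutaminase tumour was thus above the highest vehicle tumour, with PEG-glutaminase 2 at the top and vehicle 2 at the bottom. The means were 781 ± 112 and 516 ± 65.9 (SD, n = 3 each), a ratio of 1.51. On the log2(value + 1) scale Cdc6 differed by 0.60 ± 0.13 (SE; limma, adjusted p = 0.114), with a 95% interval of 0.31 to 0.89; the DESeq2 adjusted p was 0.0074. Of all tested genes, 97.1% had a smaller log2 difference.

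Cdt1, the partner that brings the helicase to Cdc6, had 2322, 2504 and 2366 normalized counts in the PEG-glutaminase tumours and 2256, 2067 and 2142 in the vehicle tumours. The groups lay close together without overlapping, and PEG-glutaminase 1 stood little above vehicle 1. The log2 difference of Cdt1 was 0.15 ± 0.08 (SE), with a 95% interval of -0.01 to 0.32 and adjusted p-values of 0.304 by limma and 0.377 by DESeq2. It did not pass by either.

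The 6 subunits of the helicase ring lay close to each other in their differences. Mcm4, which with Mcm6 and Mcm7 forms the catalytic core of the ring, had the largest. Mcm4 had 3141, 3799 and 3327 normalized counts in the PEG-glutaminase tumours, against 2722, 2288 and 2877 in the vehicle tumours. Vehicle 2 was the lowest and PEG-glutaminase 2 the highest. The log2 difference was 0.38 ± 0.11 (SE; 95% interval 0.15 to 0.62), with an adjusted p of 0.137 by limma and 0.0406 by DESeq2.

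Mcm6 had 6231, 7352 and 6264 normalized counts in the PEG-glutaminase tumours, against 5446, 5193 and 5499.6 in the vehicle tumours. Its 3 vehicle tumours were nearly level, while PEG-glutaminase 2 stood apart from the other 2 treated tumours. The log2 difference of Mcm6 was 0.29 ± 0.09 (SE; adjusted p = 0.154 by limma and 0.0513 by DESeq2). Mcm7 had 5977, 6725 and 6358 normalized counts in the PEG-glutaminase tumours and 5521, 5519 and 5174 in the vehicle tumours. It was the smallest difference of the ring, 0.23 ± 0.08 (SE; 95% interval 0.05 to 0.41; adjusted p = 0.19 by limma and 0.102 by DESeq2), and the only ring gene whose lowest tumour was vehicle 3 and not vehicle 2.

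Mcm2, whose amino-terminal tail also holds histones at the fork, had 4707, 5118 and 4632 normalized counts in the PEG-glutaminase tumours and 3900, 3667 and 4266 in the vehicle tumours. Mcm3, the subunit through which Cdc6 and the origin complex engage the ring, had 4968, 5342 and 4715 against 4169, 3734 and 4444 normalized counts in PEG-glutaminase and vehicle tumours. Mcm5, which with Mcm2 forms the gate through which DNA enters, had 4146, 4919 and 4453 in the PEG-glutaminase tumours and 3586, 3375 and 3968 in the vehicle tumours. In all 3 genes vehicle 3 came nearest to the treated tumours and vehicle 2 was farthest. Their log2 differences were 0.29 ± 0.09 for Mcm2, 0.29 ± 0.09 for Mcm3 and 0.31 ± 0.09 for Mcm5 (SE; adjusted p of 0.152, 0.167 and 0.156 by limma, and of 0.0576, 0.0821 and 0.0666 by DESeq2).

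Per kb of transcript, where levels of different genes can be set side by side, the ring subunits kept nearly the same order in every tumour. Mcm7 was the highest in all 6, at 2018 to 2270 normalized counts per kb in the PEG-glutaminase tumours and 1747 to 1864 in the vehicle tumours. Mcm4 was the lowest in all 6, at 875 to 1059 and 637 to 802 normalized counts per kb in the same groups. Mcm6 and Mcm3 changed places between tumours and do not differ beyond their spread, at 1431 to 1688 against 1374 to 1557 normalized counts per kb within the PEG-glutaminase tumours, and 1192 to 1263 against 1088 to 1295 within the vehicle tumours. Mcm2 and Mcm5 followed, in that order in every tumour. The highest subunit was 2.14 to 2.32 times the lowest in PEG-glutaminase tumours and 2.18 to 2.92 times in vehicle tumours. These levels use the longest transcript of each gene in GENCODE M21.

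**Figure D2:**
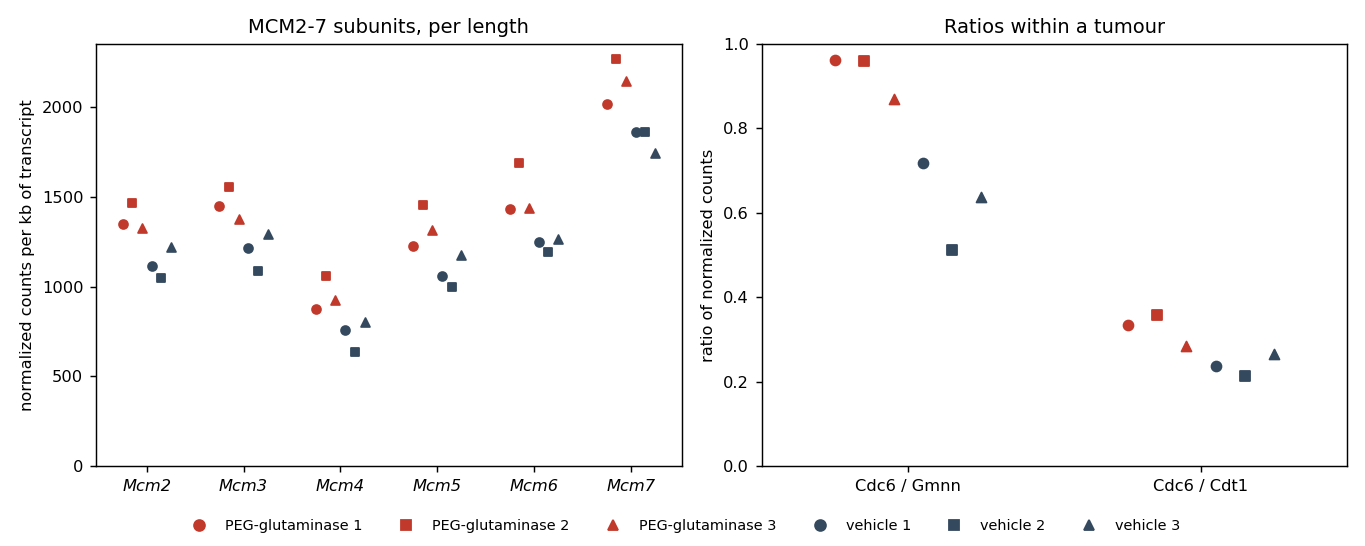
Left, normalized counts per kb of transcript (y axis) of the 6 ring subunits in each tumour, PEG-glutaminase (red) left of vehicle (dark); right, the ratio of normalized counts of Cdc6 to Gmnn and of Cdc6 to Cdt1 within each tumour. Mcm7 is highest and Mcm4 lowest throughout, and the Cdc6 ratios of the groups do not overlap.

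Mcm10, which acts after loading and helps to start unwinding, had 1114, 1172 and 1083 normalized counts in the PEG-glutaminase tumours, against 789, 704 and 856 in the vehicle tumours. The treated tumours were nearly level and all of them stood above the highest vehicle tumour. The means were 1123 ± 45.1 and 783 ± 76.2 (SD, n = 3 each), a ratio of 1.43. The log2 difference of Mcm10 was 0.52 ± 0.09 (SE), with a 95% interval of 0.32 to 0.73. It had the smallest p of the 10, the 20th smallest of all tested genes, and did not pass after adjustment by limma (adjusted p = 0.111), while DESeq2 gave an adjusted p of 0.0015.

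Gmnn, the inhibitor of Cdt1, was the member that did not follow the rest. Gmnn had 806, 933 and 773 normalized counts in the PEG-glutaminase tumours and 746, 863 and 893 in the vehicle tumours. The groups overlapped, and the spread within each exceeded the difference between them. The log2 difference was 0.00 ± 0.10 (SE; adjusted p = 0.984 by limma and 0.99 by DESeq2). Its 95% interval ran from -0.23 to 0.24, so differences close in size to that of Mcm7 lie at its ends. The mean turned to -0.08 without PEG-glutaminase 2 and -0.07 without vehicle 1.

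Ratios within a tumour cancel the scaling of its library. Cdc6 stood at 0.963, 0.961 and 0.870 times Gmnn in the PEG-glutaminase tumours, against 0.718, 0.512 and 0.638 times in the vehicle tumours. The treated tumours were all higher. Cdc6 stood at 0.334, 0.358 and 0.284 times Cdt1 in the PEG-glutaminase tumours and 0.237, 0.214 and 0.266 times in the vehicle tumours, again without overlap. The ratio of Cdt1 to Gmnn did overlap, at 2.88, 2.68 and 3.06 in the PEG-glutaminase tumours and 3.03, 2.39 and 2.40 in the vehicle tumours. Whether the members differ from each other in response was not tested.

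**Figure D3:**
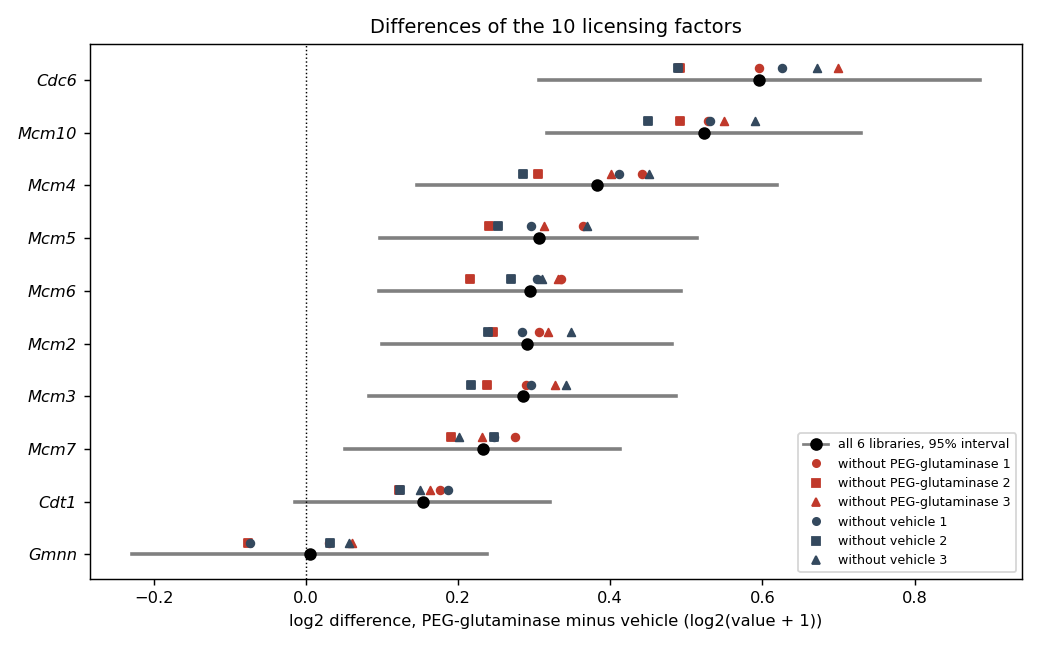
Log2 difference, PEG-glutaminase minus vehicle (x axis), of each licensing factor with all 6 libraries (black point, grey 95% interval) and with each library left out (small markers). Every value of 9 genes stays above 0, and those without vehicle 2 or PEG-glutaminase 2 lie lowest for most; Gmnn sits on both sides of 0.

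The tumours did not contribute evenly. PEG-glutaminase 2 was the highest of the 6 for all 10 members, and vehicle 2 the lowest for 8. Centred on the mean of the 6 libraries, the 10 genes averaged 0.10, 0.27 and 0.09 log2 units in PEG-glutaminase tumours 1, 2 and 3, against -0.15, -0.25 and -0.07 in vehicle tumours 1, 2 and 3. With PEG-glutaminase 2 and vehicle 1 both left out, 5 of the 10 had an unadjusted limma p under 0.05. The share of all genes under 0.05 in that fit was not counted. The level of most members followed this common profile closely. Pearson's r with the mean of the 10 was taken over the 6 libraries of both groups, so the difference between the groups enters it. It was 0.85 for Mcm7, 0.93 for Cdt1, 0.97 to 0.99 for the other ring genes, Cdc6 and Mcm10, and 0.29 for Gmnn. This is a description, as each member is part of that mean.

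Markers of other cells were set beside these values. The 10 T and NK cell markers summed to 427 to 2282 normalized counts in the PEG-glutaminase tumours, against 2957 to 3219 in the vehicle tumours, with the lowest sum in PEG-glutaminase 2. All 10 markers had a lower mean in the PEG-glutaminase tumours, with a median log2 difference of -1.64, and 0 passed by limma. At an unadjusted limma p under 0.05 there was 1, Cd3d, which DESeq2 called lower (adjusted p = 0.0157). In either direction, 2498 of all 13557 tested genes were under 0.05 unadjusted by limma, so 1 of 10 does not stand out. DESeq2 called 3.92% of genes in either direction. The 4 endothelial markers summed to 2499 to 3304 in the PEG-glutaminase tumours and 2403 to 2455 in the vehicle tumours. The sums overlapped for macrophages, at 24834 to 28844 and 21192 to 30133, and for fibroblasts, at 57458 to 72708 and 50809 to 69177 normalized counts in the same groups. Among the 7 macrophage markers Mrc1, the mannose receptor, stood apart from that sum, with 5036, 8955 and 4725 normalized counts in the PEG-glutaminase tumours and 2117, 2078 and 2655 in the vehicle tumours. Its log2 difference was 1.40 ± 0.27 (SE; adjusted p of 0.124 by limma and 0.0024 by DESeq2), and it was highest in PEG-glutaminase 2, as the licensing factors were. The part of cell composition in the values of the licensing factors was not tested.

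**Figure D4:**
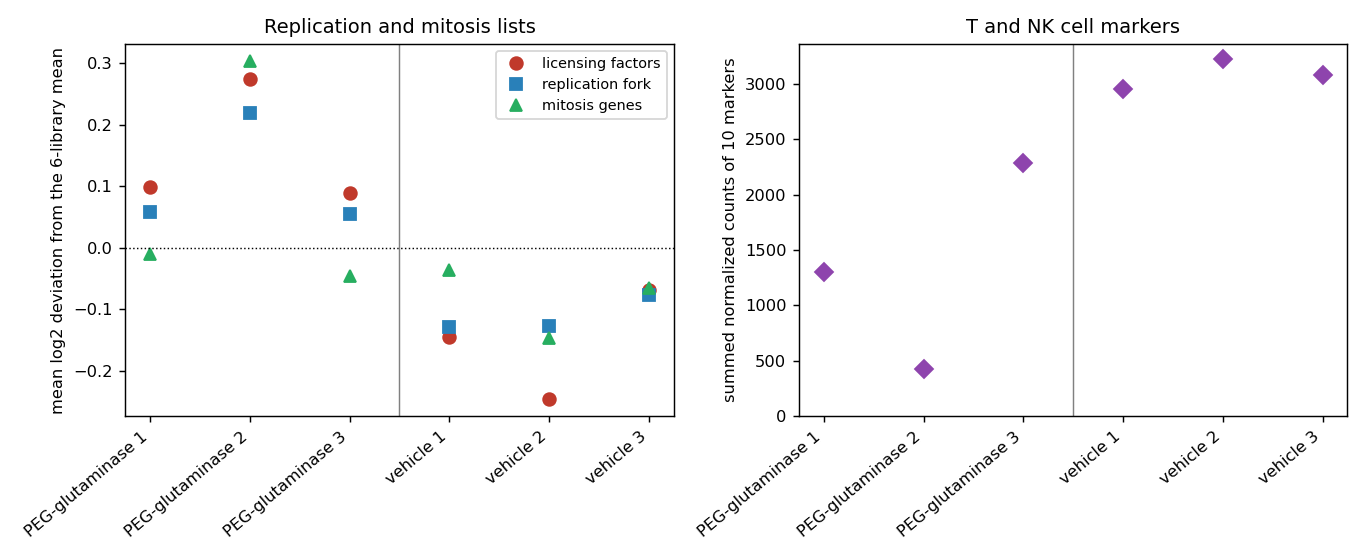
Left, mean log2 deviation from the 6-library mean (y axis) of the licensing factors, replication fork genes and mitosis genes in each tumour; right, the summed normalized counts of the 10 T and NK cell markers. PEG-glutaminase 2 has the highest value of all 3 lists, at 0.27 for the licensing factors, and the lowest T and NK sum, 427.

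Related genes of replication were taken from 6 lists. Limma called 0 of their 88 tested members in either direction after adjustment over all genes, beside 0.0369% of all genes. DESeq2 called 12 higher and 0 lower. For these and the DESeq2 counts by list below, the share called higher was 1.77% of the 12405 genes with a DESeq2 adjusted p. For the limma counts by list below, the share of all genes higher at an unadjusted p under 0.05 was 8.92%. In either direction 2498 of the 13557 tested genes were under it. The origin recognition complex and its helpers, which stand upstream of loading, had a median log2 difference of 0.12, with 8 of 9 higher and 1 at an unadjusted limma p under 0.05. That gene, Orc2, stood at 0.24 ± 0.09. The MCM-binding protein Mcmbp stood at 0.15 ± 0.07 and Orc3 at 0.18 ± 0.09 (SE; limma adjusted p of 0.208, 0.293 and 0.31 for the 3). Leaving out PEG-glutaminase 2 brought this median to 0.0331, and leaving out vehicle 1 brought it to 0.056.

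Factors that fire licensed origins or build the active helicase had a median of 0.18, with 12 of 13 higher and 7 of them at an unadjusted limma p under 0.05 (8.92% of all genes). DESeq2 called 4 of them higher, Ticrr, Recql4, Topbp1 and the kinase gene Cdc7. Ticrr, which hands Cdc45 to the ring, had 514, 655 and 571 normalized counts in the PEG-glutaminase tumours and 432, 296 and 372 in the vehicle tumours, and stood at 0.67 ± 0.15. The helicase Recql4 stood at 0.58 ± 0.14 and the scaffold Topbp1 at 0.41 ± 0.10 (SE; limma adjusted p of 0.114, 0.122 and 0.122). The GINS subunits of the helicase did not share this size, with Gins1 at 0.10 ± 0.11, Gins2 at 0.08 ± 0.10, Gins3 at 0.15 ± 0.11 and Gins4 at -0.07 ± 0.08 (SE; limma adjusted p from 0.451 to 0.689). These 4 were named after their values were seen.

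Genes that destroy or protect Cdt1 and geminin had a median of 0.05, with 8 of 10 higher; the median was 0.0033 without PEG-glutaminase 2 and 0.0765 without PEG-glutaminase 1. Those of smallest p were Dtl, which marks Cdt1 for destruction at the fork, at 0.36 ± 0.08, Skp2, of the other Cdt1 ligase, at 0.41 ± 0.10, and the deubiquitinase Usp37 at 0.34 ± 0.10 (SE; limma adjusted p of 0.114, 0.133 and 0.152). DESeq2 called Dtl and Skp2 higher. Of the E2F and pocket protein genes 10 of 13 were higher, with a median of 0.29. At an unadjusted limma p under 0.05, 8 were higher and 1 lower, beside 8.92% of all genes higher. Tfdp1, the partner of E2F proteins, stood at 0.37 ± 0.09, E2f8 at 0.64 ± 0.16 and E2f7 at 0.42 ± 0.12 (SE; limma adjusted p of 0.122, 0.136 and 0.137). The pocket protein Rbl2 was the one at -0.30 ± 0.13 (limma adjusted p = 0.245). DESeq2 called Tfdp1 and E2f8 higher.

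At the replication fork 25 of 27 genes were higher, with a median of 0.21 and 14 at an unadjusted limma p under 0.05 (8.92% of all genes). Pola2 and Pola1, subunits of the polymerase that primes synthesis, stood at 0.35 ± 0.08 and 0.46 ± 0.12, and the checkpoint mediator Clspn at 0.48 ± 0.12 (SE; limma adjusted p of 0.122, 0.135 and 0.122). DESeq2 called these 3 and Pole, the catalytic subunit of the leading strand polymerase, higher. Genes of mitosis had a median of 0.12, with 14 of 16 higher and 0 called by DESeq2. Of the 16, 3 were higher at an unadjusted limma p under 0.05 (8.92% of all genes). The median was 0.0318 without PEG-glutaminase 2 and 0.22 without PEG-glutaminase 3. The 3 were the topoisomerase Top2a at 0.35 ± 0.11, the spindle checkpoint kinase Bub1b at 0.23 ± 0.10 and the proliferation marker Mki67 at 0.40 ± 0.17 (SE; limma adjusted p of 0.164, 0.267 and 0.27). In 3 of the 16 mitosis genes the PEG-glutaminase tumours were higher with no overlap, against 9 of the 10 licensing factors and 13.1% of all genes. The other related lists shared this trait in part. It held for 17 of 27 replication fork genes, 9 of 13 firing factors and 8 of 13 E2F and pocket protein genes. For Cdt1 and geminin control it was 4 of 10, and for the origin complex list 3 of 9. Centred values of the mitosis genes were 0.30 in PEG-glutaminase 2, and -0.01 and -0.05 in PEG-glutaminase 1 and 3, against -0.04 to -0.15 in the vehicle tumours. The difference between the lists was not tested.

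**Figure D5:**
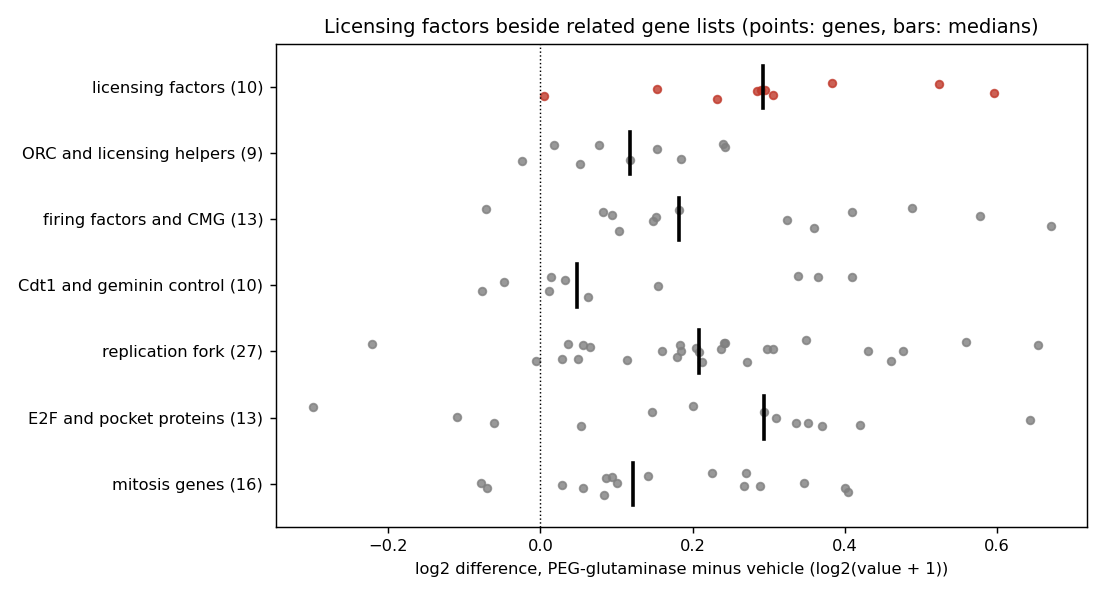
Log2 difference, PEG-glutaminase minus vehicle (x axis), of each gene of the licensing factors (red) and of 6 related lists (grey), with list medians as black bars and the number of genes in brackets. Medians run from 0.05 for Cdt1 and geminin control to 0.29 for the licensing factors and the E2F list.

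Outside these lists, the 5 genes whose log2 profile over the 6 libraries was most like the mean of the 10 members were Dab2, Stab1, Cert1, Pex26 and Ttf2, each with a Pearson r of 0.99. Stab1 had 6247, 8962 and 5653 normalized counts in the PEG-glutaminase tumours and 2871, 2284 and 3317 in the vehicle tumours. The 6 points come from both groups, so the difference between the groups enters r. Of 10236 genes averaging 100 or more normalized counts, 530 had an r above 0.9 and 192 above 0.95.

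The authors' deposited table also holds their own DESeq2 comparison. In it 8 of the 10 members had an adjusted p under 0.05, all with a positive fold change, beside 1.98% of genes called with a positive one. Its column headers name no groups. A positive value was read as higher after PEG-glutaminase. The sign matched the 6 libraries for 89.2% of gene models with an authors' mean above 10. Mcm10, with a log2 fold change of 0.48 ± 0.09 (SE) in the authors' deposited table, had the 6th smallest p of all gene models (adjusted p = 8.01e-05), and Cdc6, at 0.58 ± 0.12, the 19th (adjusted p = 0.000682). The ring genes ran from 0.21 for Mcm7 to 0.36 for Mcm4 in the authors' deposited table, with DESeq2 adjusted p-values from 0.00879 to 0.0348. Cdt1 (0.18, adjusted p = 0.0866) and Gmnn (0.03, adjusted p = 0.916) did not pass in the authors' deposited table by DESeq2. That comparison is not one of the 6 libraries alone. It gives a mean above 0 for 567 gene models that are at 0 in all 6 libraries, so it drew on at least 1 further library, which was not analysed here.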

How the data were processed

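The deposited table gives, for each of 40303 BALB/cJ gene models, an expression signal in normalized counts: reads per gene divided by a size factor, as the authors deposited it. FastQC, the aligner STAR, featureCounts, DESeq and DESeq2 were used, per the submitters' processing notes; their versions, settings, strand and build were not given in the sources used here. The deposited log2 fold change, Wald score and p-values are the authors' own. In all 6 libraries 100% of non-zero values were whole multiples of 1 read within 0.01, so reads were recovered; the step of PEG-glutaminase 2 lies near 1, where this says less. 93 repeat rows were dropped.

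Because values are normalized, limma 3.58.1 (R 4.3.3; mean trend, robust, two-sided) was run on log2(value + 1) of 13557 genes with a mean of at least 10, with Benjamini-Hochberg adjustment at 0.05, as planned for such values. This scale understates the change of low genes. The test was also run on simulated data, but no outcome is given here and none is used as support. edgeR 4.0.16 and DESeq2 1.42.0 on recovered reads, other filters, pseudocounts, scalings and left-out libraries were alternatives. Groups and numbers came from titles. The p-values measure the spread between mice, 1 tumour each. Members and lists were chosen with earlier results of these data known. Named genes were all members, the 3 of smallest p per related list, and the 5 of most similar profile; the Gins genes, Rbl2, Cdc7, Pole, Cd3d and Mrc1 were named after their values were seen. Cell type markers not described were neutrophils (200.0 to 371 and 266 to 343 summed normalized counts in PEG-glutaminase and vehicle tumours) and B cells (6.21 to 22.8 and 6.87 to 14.5).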

Additional observations from a re-analysis of the deposited data

How the results depend on the processing

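Each group had 3 tumours, and how larger groups or deeper libraries would change the calls was not tested. The direction of 9 members held under every alternative run. Gmnn turned to -0.15 with vehicle 1 and PEG-glutaminase 2 both left out, and ranged from -0.0753 to 0.0602 with 1 library left out. The count of members called, 0 by limma, was 2 with no filter on low values (Mcm10, adjusted p = 0.0231, and Cdc6, adjusted p = 0.0334; 0.28% of all genes were called higher) and 3 with DESeq2. It was 0 in every fit with 1 library left out, in which 7 to 9 members had an unadjusted limma p under 0.05. The matching share of all genes was not counted in those fits. The count over all genes, 5 by limma, was 136 with no filter, 486 with DESeq2 and 0 to 26 with 1 library left out. Same-numbered mice did not deviate together (r of -0.13, -0.21 and -0.22). Deviations of 3 libraries from their own mean are not independent, so these values cannot show whether the mice were paired. With the number as a replicate block 0 members and 1 gene were called. The members' median of 0.29 ranged from 0.24 to 0.35 with 1 library left out. That of the origin complex list, 0.12, ranged from 0.0331 to 0.15, and was 0.0293 without vehicle 1 and PEG-glutaminase 2; that of the E2F list, 0.29, ranged from 0.21 to 0.36, and was 0.19 without both. With 1 library left out the medians of Cdt1 and geminin control and of mitosis ranged from 0.0033 to 0.0765 and from 0.0318 to 0.22. The cause of these shifts was not tested.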

Other observations

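The promoter words of the licensing factors were also counted in the related lists, as a description of letters in 300 bases. An E2F-type word was in 8 of 23 replication fork genes with a promoter in the RefSeq table. It was in 5 of 10 E2F and pocket protein genes and 3 of 9 genes of the origin complex list. Firing factors held it in 2 of 8, Cdt1 and geminin control in 1 of 10 and mitosis genes in 1 of 14. Over all genes it was 2.61%. In the mitosis genes CCAAT was in 14 of 14 and TTTGAA in 11 of 14, beside 6 of 8 and 1 of 8 licensing factors. TTTGAA was in 4 of 8 firing factors, 4 of 10 E2F and pocket protein genes and 3 of 10 Cdt1 and geminin control genes. Over all genes it was in 20.2%.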
